A study of Mus musculus with 21 samples.

Results

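The genes described here encode fibronectin and the main structural proteins of basement membranes other than collagens. They are Fn1, the laminin chain genes Lama2, Lama4, Lama5, Lamb1, Lamb2 and Lamc1, the nidogen genes Nid1 and Nid2, and Hspg2, which encodes perlecan. They were taken by gene symbol, all 10 were among the 45706 genes of the deposited count table, and 9 of them passed the filter on low counts, as did 15230 genes in all. Lama2 (chr10:26980036-27619758 on GRCm38) did not pass and is given only as counts. RNA came from 2 lines of cultured mouse mammary fibroblasts: NF1, from normal glands of FVB/n mice and here called NF, and CAF1, from MMTV-PyMT mammary carcinoma and here called CAF, in which a viral oncogene is driven in the mammary epithelium.

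Every culture received siRNA at 100 nM, and RNA was taken 48 h after transfection in medium with 10% serum. NF were measured with control siRNA and vehicle, and with TGFβ1 at 5 ng/mL for 43 h together with control siRNA, siHsp90aa1 or siHsp90ab1. CAF were measured with vehicle only, with control siRNA, siHsp90aa1 or siHsp90ab1. Each of these 7 groups had 3 libraries. The siRNA pools target the genes of the cytosolic HSP90 chaperones. Because all NF knockdowns were done with TGFβ1 and all CAF knockdowns with vehicle, the line and TGFβ1 cannot be told apart where a knockdown effect is compared between NF and CAF. Each line stands for a single numbered isolate, and whether replicates were grown separately is not recorded, so the p-values measure only the spread between these libraries.

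Fibronectin is a secreted dimer that cells assemble into fibrils through integrins, and it is a main component of the provisional matrix of wounds and of tumour stroma. Basement membranes are thin sheets on which epithelia rest and which wrap vessels, muscle and fat cells. Their laminin network is built of trimers with 1 alpha, 1 beta and 1 gamma chain each, so the chain genes a cell transcribes limit which trimers it can make. Nidogens bind the laminin gamma chain and type IV collagen, and perlecan, a large heparan sulfate proteoglycan, binds both networks and holds growth factors. In the mammary gland the basement membrane separates the ducts from the stromal fibroblasts, which contribute some of its components.

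RefSeq promoter sequences (GRCm38.p6) were matched for 6 of the 10 genes: Lama2, Lama5, Lamb1, Lamb2, Nid1 and Hspg2. Of these, 3 are printed because the levels of Lama5 and Hspg2 followed each other most closely over the libraries, while Nid1 went the other way when Hsp90aa1 was knocked down in CAF. Each runs 5′ to 3′ on the strand of its gene and ends at the last base before the GENCODE gene model. Capitals mark the GC box GGGCGG on either strand.
Lama5, chr2:180225860-180226059, minus strand: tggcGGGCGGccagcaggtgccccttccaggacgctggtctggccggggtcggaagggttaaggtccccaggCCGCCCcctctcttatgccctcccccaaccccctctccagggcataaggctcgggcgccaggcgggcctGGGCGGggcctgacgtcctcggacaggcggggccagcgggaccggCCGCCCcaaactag
Hspg2, chr4:137468603-137468768, plus strand: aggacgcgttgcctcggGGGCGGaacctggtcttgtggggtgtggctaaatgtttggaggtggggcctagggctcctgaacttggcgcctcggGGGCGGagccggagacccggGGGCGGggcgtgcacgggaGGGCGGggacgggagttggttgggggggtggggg
Nid1, chr13:13437402-13437550, plus strand: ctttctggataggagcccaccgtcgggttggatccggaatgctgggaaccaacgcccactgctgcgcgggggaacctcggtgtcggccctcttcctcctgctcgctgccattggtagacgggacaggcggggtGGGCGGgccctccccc
In the 250 bases before the RefSeq start, Hspg2 held 5 GC boxes, of which 1 lies outside the printed stretch. Lama5 held 4, Lamb1 held 2 and Nid1 held 1, whereas Lamb2 and Lama2 held 0, and 32.7% of 32851 mouse promoters held at least 1. On either strand, the short SMAD-binding element CAGAC was found in Lama2, Lama5, Lamb1 and Lamb2 and in 42.2% of all promoters, and the heat shock element GAANNTTC was found in Lama2 and in 6.69% of all. The AP-1 site TGANTCA, the cAMP response element TGACGTCA, the palindromic SMAD box GTCTAGAC and the TATA box TATAAA were not in these 6 windows, and 6.75%, 1.55%, 0.167% and 12.4% of all promoters held them. None of these motifs contains another, and a match is a description of letters, not of binding.

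Library totals ranged from 35087180 to 70421576 estimated counts. Each siRNA left its own target at 9.96% to 13.3% of the matched control, and siHsp90ab1 also left Hsp90aa1 at 48.1% (NF) and 47.6% (CAF) of its control level. These falls of Hsp90aa1 did not pass the test used below (edgeR adjusted p = 0.0722 in NF and 0.123 in CAF), although all libraries were below their controls. Fibroblast identity was checked with 8 markers, whose summed level was between 7449 and 57790 CPM (normalised counts scaled to the library total). Mitochondrial transcripts made up 1.67% to 4.3% of the counts, with the highest values in NF with vehicle. Of the fibroblast markers, Lum was at 0 in 8 of 21 libraries and Thy1 had a median of 0.267 CPM. The epithelial markers summed to 0.40 to 1.62 CPM in NF and 5.02 to 22.2 in CAF, with Krt19 as the main contributor at up to 22.0. The endothelial markers summed to at most 2.74 in NF and 14.97 in CAF, and Cd3e, Kcnj8 and Sox10, defining markers of T cells, pericytes and Schwann cells, were at 0 in all 21 libraries. In such bulk samples fewer cells of a type and less RNA per cell cannot be told apart.

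Among the described genes Fn1 had the highest mean transcript level in every group. On the TPM scale, which corrects for transcript length, NF with vehicle had Fn1 at 635 ± 55.0 (SD, n = 3) and Nid1 at 591 ± 22.4, and the libraries of these genes overlapped. Hspg2 and Lamb1 followed at 112 ± 24.8 and 95.6 ± 6.72, also overlapping. Lamc1 at 67.8 ± 13.6, Lamb2 at 52.2 ± 4.22, Lama4 at 30.5 ± 8.39, Nid2 at 10.1 ± 6.27 and Lama5 at 2.12 ± 0.669 each lay above the next gene in all 3 libraries. In CAF controls Fn1 reached 1757 ± 146 TPM and stood first, ahead of Nid1 at 700 ± 38.7 and Hspg2 at 298 ± 18.5. Below these, Lamb1 at 152 ± 37.1 and Lamb2 at 123 ± 11.9 overlapped, and so did Nid2 at 22.4 ± 3.55, Lama4 at 19.96 ± 2.41 and Lama5 at 18.1 ± 1.79. In the 6 groups other than NF with vehicle, Fn1 was above every other gene of the set in all 3 libraries. Lama2, the alpha chain of muscle and peripheral nerve, had 0 to 7 counts per library and was at 0 in 8 of 21.

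**Figure D1:**
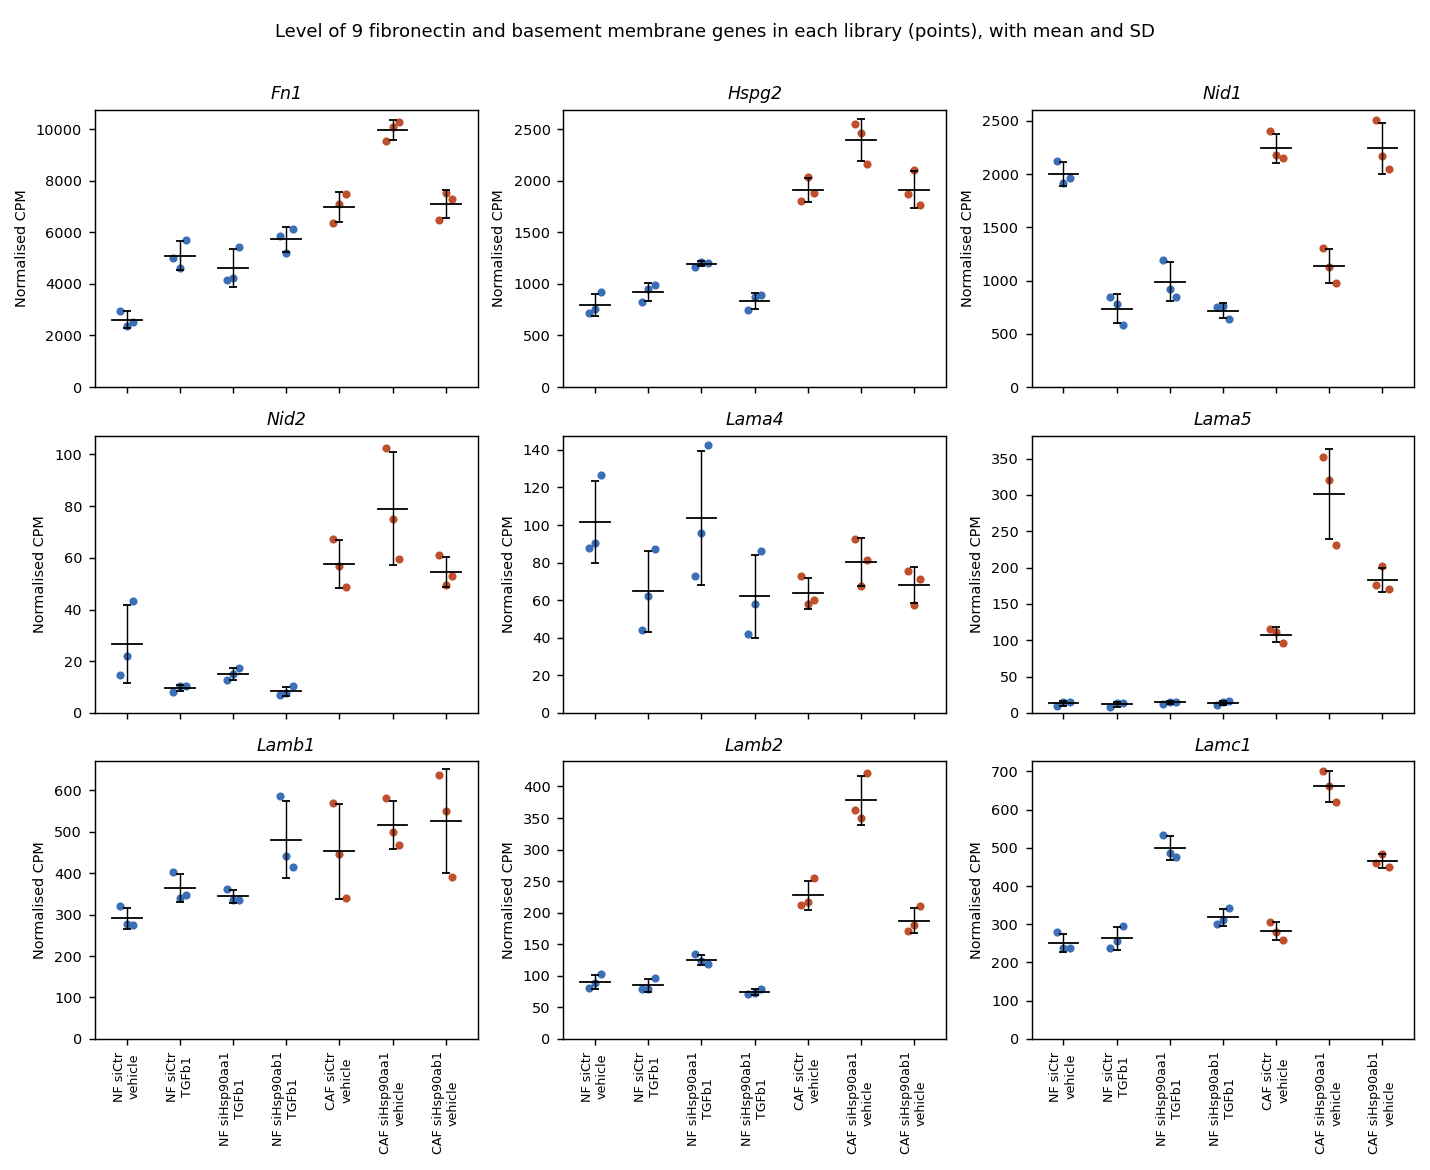
Level of the 9 tested genes in each library, as TMM-normalised CPM on linear axes that start at 0 (points; blue NF, red CAF), with the mean and SD of each group of 3. Lama5 is at 7.53 to 16.0 in all NF libraries and at 95.9 to 352 in all CAF libraries, and Nid1 is at 981 to 1304 in CAF with siHsp90aa1 against 2153 to 2401 in CAF controls.

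Differences were tested with edgeR's quasi-likelihood test on the counts of all genes, with Benjamini-Hochberg adjustment, and are called changed at an adjusted p under 0.05. This fit held no term for the replicate number, which the labels tie to a batch, and a block for it was an alternative. In CAF against NF, both with control siRNA and vehicle, 6 of 9 genes were higher and 1 was lower, where 61.6% of all 15230 genes passed, 31.6% higher and 30% lower. The median log2 fold change was 1.11 against -0.0049 over all genes tested. The 2 groups did not overlap for 8 of 9 genes, against 61.4% of all genes. With TGFβ1 in NF, Fn1 rose and both nidogens fell, where 29% of all genes passed, 14.6% higher and 14.4% lower. The median was -0.09 against -0.03, and 5 of 9 genes did not overlap, against 38.9% of all.

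Knockdown of Hsp90aa1 raised 4 and lowered 0 of 9 in NF, where 28.3% of all genes passed, 14.8% higher and 13.5% lower, and 4 of 9 did not overlap, against 46.7%. In CAF it raised 5 and lowered 1, where 25.4% passed, 12.5% higher and 12.9% lower, and 6 of 9 did not overlap, against 40.4%. The medians were 0.42 and 0.46 against 0.0055 and 0.03 over all genes.

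Knockdown of Hsp90ab1 changed 0 of 9 in NF, where 2.69% of all genes passed, 1.06% higher and 1.62% lower. At an unadjusted p under 0.05, 2 of the 9 passed there, Lamb1 and Lamc1, which were also the 2 that did not overlap, against 21.6% of all genes. DESeq2 gave 0 as well, and with the replicate number as a block Lamb1 passed at an adjusted p of 0.0387, in a range of 0.0387 to 0.802 over the alternatives. In CAF it raised Lamc1 alone, where 0.9% of all genes passed, 0.466% higher and 0.433% lower, and 3 of 9 did not overlap, against 15.3%. The effect of siHsp90aa1 differed between the lines for 3 of 9 genes, where 5.46% of all genes passed, and that of siHsp90ab1 for 0 of 9, where 0.00657% did. For siHsp90ab1 this count was 0 of 9 by DESeq2 too, and at an unadjusted p under 0.05 it was 1, Lamc1. The share of all genes at an unadjusted p under 0.05 is not given here, so neither unadjusted count can be set against it.

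Against NF with vehicle, 6 of 9 differed in NF with TGFβ1 and siHsp90aa1, where 30.1% of all genes did, and 7 of 9 with TGFβ1 and siHsp90ab1, where 41.1% did. CAF controls differed from NF with TGFβ1 in 6 of 9, all higher in CAF, where 58.9% of all genes differed in either direction. The knockdowns share their control libraries, and CAF against NF shares the NF libraries with the TGFβ1 comparison.

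**Figure D2:**
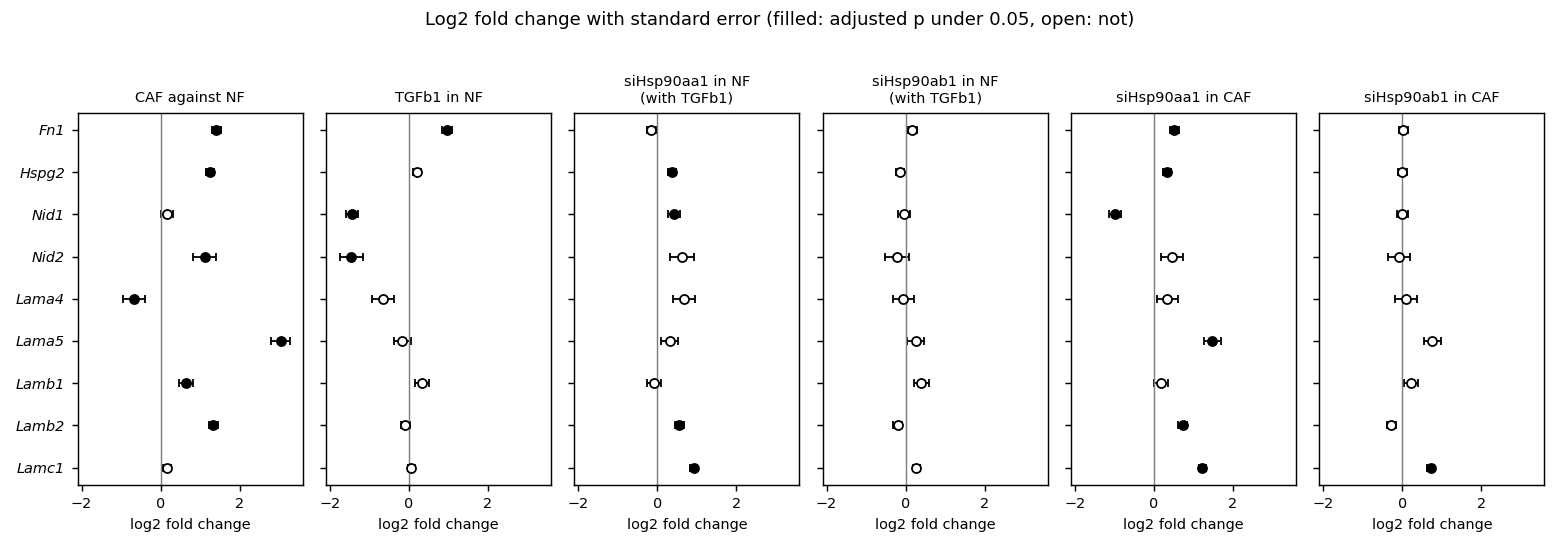
Log2 fold change with its standard error for the 9 tested genes in 6 comparisons (x axis), each panel against its own control, with filled points for an adjusted p under 0.05. The largest value is that of Lama5 in CAF against NF, 3.04, and Nid1 is the gene below 0 with a filled point under siHsp90aa1 in CAF, at -0.98.

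Fibronectin transcripts rose with TGFβ1 and were higher still in CAF. Fn1 (chr1:71585520-71653200) was at 2968, 2361 and 2520 CPM in NF with vehicle and at 4997, 4598 and 5708 with TGFβ1, so the groups did not overlap. Coordinates are those of the whole gene in GENCODE on GRCm38. The log2 fold change was 0.96 ± 0.12 (SE; edgeR adjusted p = 7.3e-06). CAF controls had 6353, 7083 and 7489, all above NF with vehicle at a log2 fold change of 1.41 ± 0.12 (edgeR adjusted p = 9.94e-09). They were also all above NF with TGFβ1, by 0.45 ± 0.12 on the log2 scale (edgeR adjusted p = 0.0028).

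The response of Fn1 to the knockdown of Hsp90aa1 differed between the lines. In NF with TGFβ1 it was at 4154, 4229 and 5446 with siHsp90aa1, which overlapped the controls, with a log2 fold change of -0.15 ± 0.12 (edgeR adjusted p = 0.381). These libraries all stayed above NF with vehicle, at 0.82 ± 0.12 (edgeR adjusted p = 5.91e-05). In CAF it was at 9523, 10100 and 10270, above all 3 controls, at 0.51 ± 0.12 (edgeR adjusted p = 0.00364). The difference between the 2 effects was 0.66 ± 0.17 (edgeR adjusted p = 0.0248, with a range of 0.00431 to 0.0783 over the alternatives). This call was lost with only these groups in the fit and when any 1 of 7 of the 12 libraries was left out. These were NF siHsp90aa1 replicates 1 and 2, NF TGFβ1 control replicate 3, CAF control replicates 1 and 2, and CAF siHsp90aa1 replicates 2 and 3. With siHsp90ab1 the level was 5194 to 6143 in NF and 6472 to 7538 in CAF, both overlapping their controls.

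Among the described genes, Lama5 had the largest fold change between the lines. Lama5 (chr2:180176373-180225859), the alpha chain of most epithelial basement membranes, was at 9.47, 14.6 and 15.4 CPM in NF with vehicle and at 116, 112 and 95.9 in CAF controls. All CAF libraries were above all NF libraries, by 8.19-fold in the means and 3.04 ± 0.23 on the log2 scale (edgeR adjusted p = 2.69e-09). The summed epithelial markers were also higher in CAF, at 5.58 to 22.2 CPM in CAF controls against 0.40 to 0.58 in NF with vehicle. Krt19 was the main contributor in CAF, and each other marker of that list was at most at 1.09 CPM in any library. Of the 3 tested epithelial markers, 1 was higher and 1 lower in CAF, where 61.6% of all genes passed. The part of these markers in the result was not tested. TGFβ1 did not move Lama5 past the test, with 7.53, 13.4 and 14.3 in NF (adjusted p = 0.633), and neither knockdown did so in NF, where all libraries lay between 10.92 and 16.0.

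In CAF the knockdown of Hsp90aa1 took Lama5 further up, to 352, 321 and 232, above every control, at 1.48 ± 0.22 on the log2 scale (edgeR adjusted p = 0.000112). With siHsp90ab1 it was at 177, 202 and 171, also above every control, at 0.76 ± 0.21. That difference did not pass in edgeR (adjusted p = 0.117) and passed in DESeq2 (adjusted p = 0.0264), in a range of 0.0264 to 0.397 over the alternatives. The effect of siHsp90aa1 was larger in CAF than in NF by 1.17 ± 0.31 (edgeR adjusted p = 0.0326, range 0.00552 to 0.105). This call too was lost with only these groups in the fit and without any 1 of 8 of the 12 libraries. These were NF TGFβ1 control replicates 2 and 3, NF siHsp90aa1 replicates 1 and 2, CAF control replicates 2 and 3, and CAF siHsp90aa1 replicates 1 and 2.

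Lama4 (chr10:38965515-39110188), the alpha chain of vessel walls and mesenchymal tissue, went the other way between the lines. It was at 87.8, 90.5 and 127 in NF with vehicle and at 72.9, 57.8 and 60.1 in CAF controls, a log2 fold change of -0.68 ± 0.27 (edgeR adjusted p = 0.039). The call was lost without NF vehicle replicate 3 or CAF control replicate 2 or 3, with adjusted p from 0.00922 to 0.153 over the alternatives. With TGFβ1 it was at 44.2, 62.3 and 87.4, below every vehicle library, but the difference of -0.65 ± 0.27 did not pass (edgeR adjusted p = 0.0823). It passed with the replicate block (adjusted p = 0.0253), in DESeq2 (0.0484) and without NF TGFβ1 control replicate 3 (0.0282), in a range of 0.0253 to 0.274. With siHsp90aa1 in NF the level was 72.9, 95.9 and 143, overlapping the TGFβ1 controls, with a log2 fold change of 0.68 ± 0.27 that did not pass in edgeR (adjusted p = 0.0694). It passed with the replicate block (0.0228), in DESeq2 (0.0397), and without NF TGFβ1 control replicate 3 (0.0261) or NF siHsp90aa1 replicate 1 (0.0379), in a range of 0.0228 to 0.352. Replicate 3 had the highest Lama4 of its group in all 4 NF groups.

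The alpha chain transcripts were in different proportions in the lines. Lama5 made up 6.50% ± 1.49 (SD, n = 3) of the summed TPM of Lama2, Lama4 and Lama5 in NF with vehicle, and between 7.13% and 11.1% in the means of the other NF groups. It made up 47.6% ± 2.40 in CAF controls, 66.0% ± 5.92 with siHsp90aa1 and 58.8% ± 5.04 with siHsp90ab1. No NF library was above 11.96%, and no CAF library was below 46.1%. Taken from counts, which are not corrected for length, the share of Lama5 was 11.5% in NF with vehicle and 62.9% in CAF controls. These shares were not tested.

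**Figure D3:**
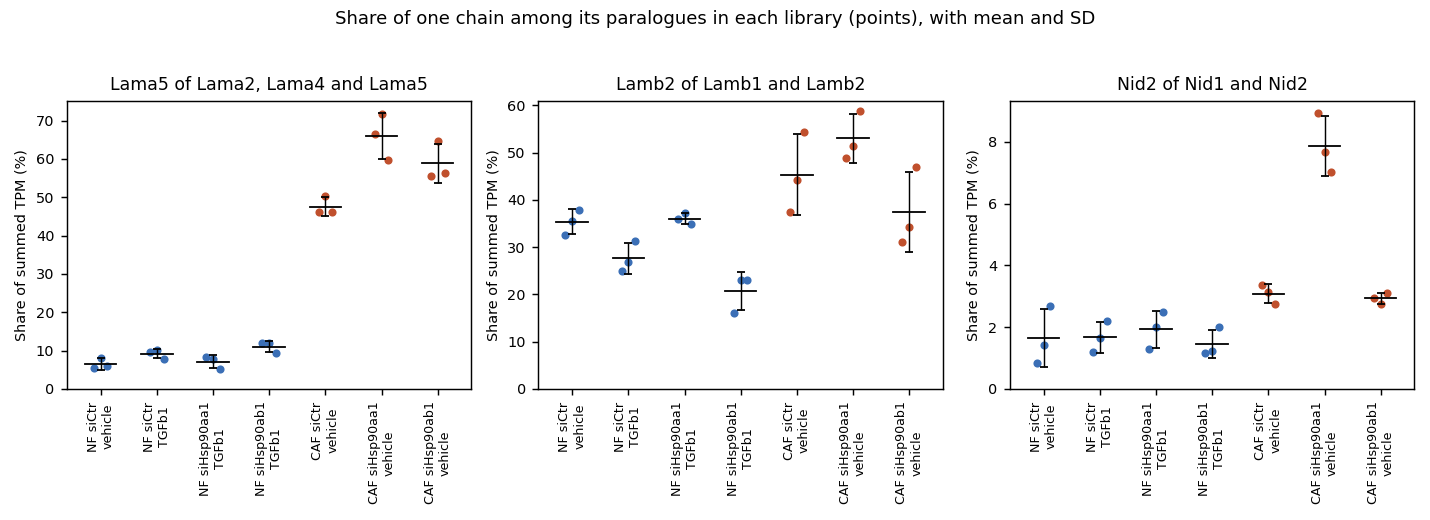
Share of a gene in the summed TPM of its paralogues, in percent on axes that start at 0, for each library (points; blue NF, red CAF) with the mean and SD of 3. Lama5 among the alpha chains is at 46.1% to 71.6% in CAF and at 5.23% to 11.96% in NF, and Nid2 among the nidogens stands apart at 7.02% to 8.93% in CAF with siHsp90aa1.

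Of the beta chain genes, both were higher in CAF than in NF, and Lamb2 alone rose with siHsp90aa1, in both lines. Lamb2 (chr9:108479736-108490530), the beta chain of neuromuscular and kidney basement membranes, was at 79.9, 89.4 and 102 in NF with vehicle and at 212, 216 and 254 in CAF controls, at 1.33 ± 0.11 (edgeR adjusted p = 1.19e-08). With TGFβ1 it was at 78.7, 79.7 and 96.9, overlapping vehicle. Knockdown of Hsp90aa1 raised it in both lines, to 134, 123 and 119 in NF at 0.56 ± 0.11 (edgeR adjusted p = 0.00128), and to 362, 350 and 422 in CAF at 0.73 ± 0.11 (edgeR adjusted p = 0.000158). None of these 6 libraries overlapped its controls, and the 2 effects differed by 0.17 ± 0.16, which did not pass (adjusted p = 0.599). With siHsp90ab1 it was at 70.6 to 79.1 in NF and 172 to 210 in CAF, and neither difference passed (adjusted p = 0.507 and 0.422), although all 3 CAF libraries were below their controls.

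Lamb1 (chr12:31265234-31329644), the more widespread beta chain, was at 320, 278 and 275 in NF with vehicle and at 570, 447 and 341 in CAF controls. The log2 fold change was 0.64 ± 0.18 (edgeR adjusted p = 0.00483) and was not called without CAF control replicate 1, at an adjusted p of 0.0566. With TGFβ1 it was at 403, 341 and 348, above every vehicle library, at 0.32 ± 0.18. This did not pass (edgeR adjusted p = 0.196) except with the replicate block (0.0242) or with only these groups in the fit (0.0492), in a range of 0.0242 to 0.444. Neither knockdown moved it past the test in either line. Lamb2 made up 35.4% ± 2.61 of the summed beta chain TPM in NF with vehicle, 27.7% ± 3.30 with TGFβ1, 36.0% ± 1.11 with siHsp90aa1 and 20.7% ± 4.01 with siHsp90ab1. In CAF it made up 45.3% ± 8.52, 53.1% ± 5.19 with siHsp90aa1 and 37.5% ± 8.43 with siHsp90ab1.

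Lamc1 (chr1:153218922-153332786), the gamma chain shared by most laminins, was similar in both lines and responded to the knockdowns. It was at 279, 239 and 237 in NF with vehicle, at 238, 256 and 295 with TGFβ1 and at 306, 279 and 260 in CAF controls, which all overlapped, and neither CAF against NF (adjusted p = 0.13) nor TGFβ1 (0.658) passed in edgeR. Without NF vehicle replicate 1, CAF against NF was called at a log2 fold change of 0.24 (edgeR adjusted p = 0.0344). With siHsp90aa1 it was at 534, 487 and 476 in NF, a log2 fold change of 0.92 ± 0.09 (edgeR adjusted p = 3.51e-06). In CAF it was at 701, 663 and 620, at 1.23 ± 0.09 (edgeR adjusted p = 5.68e-07). Every siHsp90aa1 library was thus above every control of its line.

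With siHsp90ab1 Lamc1 also rose in CAF, to 462, 484 and 449, above every control and below every siHsp90aa1 library, at 0.72 ± 0.09 (edgeR adjusted p = 0.000515). Hsp90aa1 itself was at 47.6% of the control in these libraries, a fall that did not pass (edgeR adjusted p = 0.123), and its part in the result was not tested. The call was lost with only these groups in the fit (adjusted p = 0.059), in a range of 1.41e-10 to 0.059. In NF the siHsp90ab1 libraries were at 300, 311 and 343, also above every control, but the difference of 0.27 ± 0.09 did not pass (edgeR adjusted p = 0.146). The difference between the siHsp90ab1 effects in CAF and NF, 0.45 ± 0.13, did not pass either (adjusted p = 0.663).

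The chain classes differed in proportion between groups. Summed beta chain TPM was 2.22 ± 0.34 times Lamc1 (SD, n = 3) in NF with vehicle, 2.39 ± 0.20 with TGFβ1 and 1.43 ± 0.03 with TGFβ1 and siHsp90aa1. It was 3.80 ± 0.15 in CAF controls, 2.19 ± 0.17 with siHsp90aa1 and 2.39 ± 0.20 with siHsp90ab1. Alpha chain transcripts were the scarcest class in every group, with means of 0.264 to 0.525 times Lamc1. Summed over all 6 chain genes, the level was 248 ± 17.6 TPM in NF with vehicle, 386 ± 33.0 in CAF controls and 579 ± 22.2 in CAF with siHsp90aa1. None of these sums was tested.

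**Figure D4:**
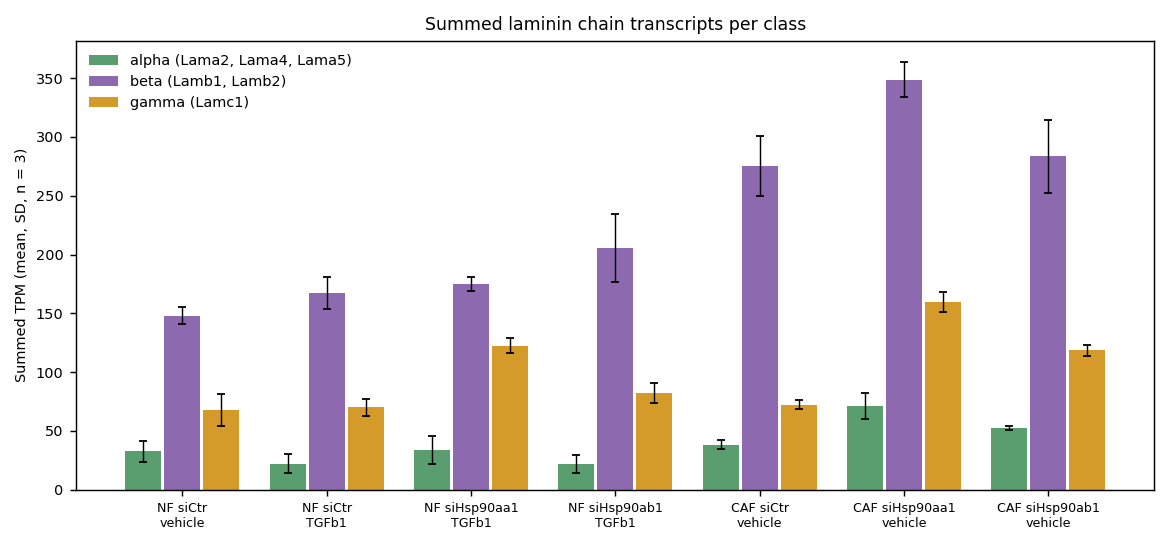
Summed TPM of the laminin alpha, beta and gamma chain genes in each group (bars, mean; error bars, SD of 3 libraries; axis starting at 0). The beta bar is the tallest in every group, and the gamma bar rises from 72.4 in CAF controls to 160 with siHsp90aa1.

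The nidogens fell together with TGFβ1. Nid1 (chr13:13437551-13512269) was at 2126, 1914 and 1961 CPM in NF with vehicle and at 849, 780 and 581 with TGFβ1, a log2 fold change of -1.44 ± 0.15 (edgeR adjusted p = 8.45e-07). Nid2 (chr14:19751265-19811787) was at 14.5, 21.9 and 43.4 with vehicle and at 8.19, 10.4 and 10.5 with TGFβ1, a log2 fold change of -1.46 ± 0.30 (edgeR adjusted p = 0.00111). For both genes the groups did not overlap. Nid2 lies on the opposite strand to Rtraf, with which it overlaps. The library kit was stranded per the labels, but whether strand was used in counting is not given in the sources used here.

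In CAF controls Nid1 was at 2401, 2176 and 2153, above all NF vehicle libraries, although the difference of 0.17 ± 0.14 on the log2 scale did not pass (edgeR adjusted p = 0.333). Nid2 was at 67.2, 56.8 and 48.7 there and was higher than in NF with vehicle by 1.11 ± 0.29 (edgeR adjusted p = 0.00249). Against NF with TGFβ1, CAF controls were higher in Nid1 by 1.61 ± 0.15 (edgeR adjusted p = 3.53e-08) and in Nid2 by 2.57 ± 0.30 (edgeR adjusted p = 8.87e-07).

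Knockdown of Hsp90aa1 lowered Nid1 in CAF and not in NF. In CAF it was at 1304, 1123 and 982, below every control, at -0.98 ± 0.15 (edgeR adjusted p = 0.000127). In NF with TGFβ1 it was at 1194, 924 and 844, which overlapped the controls, with a log2 fold change of 0.42 ± 0.14 (edgeR adjusted p = 0.0357). That rise was lost with only these groups in the fit or without NF TGFβ1 control replicate 2 or 3 or NF siHsp90aa1 replicate 1 or 2, with adjusted p from 0.00101 to 0.219. All 3 libraries also remained below NF with vehicle, at -1.02 ± 0.15 (edgeR adjusted p = 5.53e-05). The 2 effects of siHsp90aa1 differed by -1.40 ± 0.20 (edgeR adjusted p = 0.000888), and this call held in all 17 alternatives, those without 1 of the 12 libraries included. With siHsp90ab1 the level was 634 to 762 in NF and 2048 to 2509 in CAF, both overlapping their controls.

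Nid2 did not fall with Nid1 in CAF. With siHsp90aa1 it was at 103, 75.0 and 59.5, overlapping the controls, at 0.46 ± 0.28 (edgeR adjusted p = 0.255). Nid2 thus made up 7.88% ± 0.970 of the summed nidogen TPM in these libraries against 3.09% ± 0.320 in CAF controls, and between 1.46% and 1.93% in the means of the NF groups. In NF with siHsp90aa1 it was at 12.6, 15.2 and 17.2, above every TGFβ1 control, and the difference of 0.63 ± 0.30 did not pass (edgeR adjusted p = 0.121) except with only these groups in the fit (0.0119), in a range of 0.0119 to 0.318.

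Perlecan transcripts were higher in CAF. Hspg2 (chr4:137468769-137570630) was at 717, 756 and 919 in NF with vehicle and at 1805, 2034 and 1880 in CAF controls, at 1.26 ± 0.11 (edgeR adjusted p = 1.03e-08). With TGFβ1 it was at 820, 954 and 986, overlapping vehicle (edgeR adjusted p = 0.156), and it was called only without NF vehicle replicate 3, at a log2 fold change of 0.31 (edgeR adjusted p = 0.0388). With siHsp90aa1 it was at 1167, 1210 and 1206 in NF, above every TGFβ1 control, at 0.38 ± 0.10 (edgeR adjusted p = 0.012, lost without NF TGFβ1 control replicate 1, at 0.0781).

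In CAF with siHsp90aa1 Hspg2 was at 2547, 2464 and 2161, above every control, at 0.33 ± 0.10 (edgeR adjusted p = 0.0282). This smaller rise was lost without the filter on low counts, with only these groups in the fit, or without CAF control replicate 1 or 3 or CAF siHsp90aa1 replicate 1 or 2, with adjusted p from 0.0125 to 0.125. With siHsp90ab1 it was at 744 to 888 in NF and 1760 to 2107 in CAF, overlapping the controls.

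Set directly against each other, the 2 knockdowns differed in 8 of 9 genes in NF, where 34.1% of all genes did, and in 6 of 9 in CAF, where 26.3% did. Leaving out any 1 library lowered the NF count to between 4 and 6. Lamb2 was higher with siHsp90aa1 than with siHsp90ab1 by 0.76 ± 0.11 in NF (edgeR adjusted p = 5.63e-05) and by 1.01 ± 0.11 in CAF (edgeR adjusted p = 1.22e-05). Lamc1 was higher by 0.65 ± 0.09 in NF (edgeR adjusted p = 3.6e-05) and by 0.51 ± 0.09 in CAF (edgeR adjusted p = 0.000697). Nid1 was higher by 0.46 ± 0.14 in NF (edgeR adjusted p = 0.0191) and lower by 0.98 ± 0.15 in CAF (edgeR adjusted p = 0.000144).

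Fn1 was lower with siHsp90aa1 than with siHsp90ab1 in NF, at -0.32 ± 0.12 (edgeR adjusted p = 0.0445), and higher in CAF, at 0.49 ± 0.12 (edgeR adjusted p = 0.0052). In NF the calls of Fn1, Lama4, Lamb1 and Nid2 had adjusted p of 0.0358 to 0.0445 and rested on single libraries. They were lost without 4 of the 6 libraries in turn for Fn1 (all but siHsp90aa1 replicate 3 and siHsp90ab1 replicate 2), 4 for Lama4 and Nid2 (all but siHsp90aa1 replicate 1 and siHsp90ab1 replicate 3) and 5 for Lamb1 (all but siHsp90ab1 replicate 3). That of Nid1 was lost without siHsp90aa1 replicate 1 or siHsp90ab1 replicate 3. In CAF those of Lama5 and Hspg2, at 0.0184 and 0.0302, were each lost without replicate 1 of either knockdown, siHsp90aa1 replicate 2 or siHsp90ab1 replicate 3.

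The other basement membrane genes were read from lists of the same pathway. Of 7 tested genes on the list of basement membrane collagens, which holds 6 collagen genes and Pxdn, 6 were higher in CAF than in NF and 0 lower, where 61.6% of all genes passed. The 6 were Pxdn and 5 collagen genes. Col4a6 was at 18.8 against 0.389 CPM, at 5.60 ± 0.19 (edgeR adjusted p = 5.43e-14), and Col4a2, a chain of the ubiquitous type IV collagen, was higher by 1.22 ± 0.17 (edgeR adjusted p = 7.24e-06). With TGFβ1 4 of the 7 rose, Pxdn included, and 2 fell, where 29% of all genes passed. Pxdn, the peroxidase that crosslinks type IV collagen, rose by 1.22 ± 0.07 (edgeR adjusted p = 1.32e-09). Col4a6, at only 0.389 CPM with vehicle, fell by 1.91 on the log2 scale (edgeR adjusted p = 9.46e-05). Fold changes of Col4a6 within NF, here and with siHsp90aa1, are thus between low levels. Knockdown of Hsp90aa1 changed 2 of 7 in NF, where 28.3% of all genes passed, Pxdn at -0.33 ± 0.07 (edgeR adjusted p = 0.00208) and Col4a6 at 1.33 ± 0.32 (edgeR adjusted p = 0.0112, lost without NF TGFβ1 control replicate 3, at 0.064). With siHsp90aa1 in CAF 0 of the 7 changed, where 25.4% of all genes passed. The median log2 fold change of the list was 0.16 there, against 0.03 over all genes.

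Of 12 other tested basement membrane genes, 6 were higher and 3 lower in CAF than in NF, where 61.6% of all genes passed. Among them was Sparc, a collagen-binding glycoprotein, at 4385 against 1379 CPM and 1.67 ± 0.11 (edgeR adjusted p = 5.86e-10). Agrn, which encodes the proteoglycan agrin, was lower, at -1.50 ± 0.12 (edgeR adjusted p = 5.7e-09). With siHsp90aa1 2 of the 12 rose and 1 fell in CAF, where 25.4% of all genes passed, and Sparc rose to 6553, at 0.58 ± 0.11 (edgeR adjusted p = 0.00105). Agrn was the 1 gene of this list that changed with siHsp90ab1 in NF, where 2.69% of all genes passed, from 184 to 117, at -0.66 ± 0.12 (edgeR adjusted p = 0.00455). Of the 4 other tested laminin chain genes, Lamb3, a chain of epithelial anchoring laminins, rose with TGFβ1 from 0.472 to 10.2 CPM, at 4.45 ± 0.34 (edgeR adjusted p = 2.38e-08). It fell with siHsp90aa1 to 3.64, at -1.49 ± 0.28 (edgeR adjusted p = 0.000893), and it was at 0.119 in CAF controls, below NF with vehicle at -1.85 ± 0.45 (edgeR adjusted p = 0.00154).

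Receptors for fibronectin differed between the lines and moved with TGFβ1 and Hsp90aa1 in NF. Of 7 tested, 6 were higher and 1 lower in CAF than in NF, where 61.6% of all genes passed. With TGFβ1 4 rose and 2 fell, where 29% of all genes passed. Itga5, the alpha subunit of the main fibronectin receptor, went from 262 to 1224 CPM, at 2.23 ± 0.13 (edgeR adjusted p = 1.13e-09). Itgb3, the beta subunit that pairs with Itgav, went from 9.15 to 92.2, at 3.33 ± 0.21 (edgeR adjusted p = 3.46e-09). With siHsp90aa1 in NF 3 of the 7 fell and 0 rose, where 28.3% of all genes passed. Itgb3 fell to 36.0, at -1.36 ± 0.20 (edgeR adjusted p = 9.21e-05), and Itga5 to 777, at -0.66 ± 0.12 (edgeR adjusted p = 0.000822). The third was Itgb1, at -0.33 ± 0.11 (edgeR adjusted p = 0.0304), a call lost without replicate 1 or 3 of the controls or replicate 1 or 2 of siHsp90aa1, in a range of 0.0083 to 0.113.

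In CAF with siHsp90aa1 1 of the 7 fibronectin receptor genes rose, where 25.4% of all genes passed. This was Itga8, from 26.9 to 59.6, at 1.14 ± 0.32 (edgeR adjusted p = 0.0128). The call was lost without CAF control replicate 2 or siHsp90aa1 replicate 1, or with only these groups in the fit (0.0816), in a range of 0.00148 to 0.0855. The effect of siHsp90aa1 differed between CAF and NF for Itgb3 by 1.43 ± 0.27 (edgeR adjusted p = 0.00584) and for Itga5 by 0.71 ± 0.17 (edgeR adjusted p = 0.0231). The call for Itga5 was lost without 6 of the 12 libraries in turn, NF TGFβ1 control replicate 3, CAF control replicate 3, or siHsp90aa1 replicate 1 or 2 of either line, and with only these groups in the fit (0.051), in a range of 0.00438 to 0.0724. Itgb1, the common beta subunit, is on both receptor lists and differed by 0.62 ± 0.15 (edgeR adjusted p = 0.0241), a call lost with only these groups in the fit (0.051) and without 8 of the 12 libraries in turn: NF TGFβ1 control replicate 1 or 3, CAF control replicate 2 or 3, or siHsp90aa1 replicate 1 or 2 of either line.

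Of the 7 laminin receptor genes, 1 rose and 1 fell with siHsp90aa1 in each line, a share near that of all genes, 28.3% in NF and 25.4% in CAF. With siHsp90ab1 1 fell in each line, where 2.69% of all genes passed in NF and 0.9% in CAF. Dag1, which encodes dystroglycan, moved in opposite directions with the 2 knockdowns in both lines. It was at 150 CPM in NF with TGFβ1, 239 with siHsp90aa1 (0.68 ± 0.10, edgeR adjusted p = 0.000141) and 76.5 with siHsp90ab1 (-0.97 ± 0.10, edgeR adjusted p = 8.08e-05). In CAF it was at 237, 402 with siHsp90aa1 (0.76 ± 0.10, edgeR adjusted p = 6.08e-05) and 139 with siHsp90ab1 (-0.77 ± 0.10, edgeR adjusted p = 0.000731). The last call was lost with only these groups in the fit (0.059), in a range of 2.86e-09 to 0.059. Itga6, a laminin-binding alpha subunit, fell with TGFβ1 from 60.1 to 22.9, at -1.39 ± 0.30 (edgeR adjusted p = 0.00177), and with siHsp90aa1 in CAF from 79.7 to 30.7, at -1.38 ± 0.30 (edgeR adjusted p = 0.00251).

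**Figure D5:**
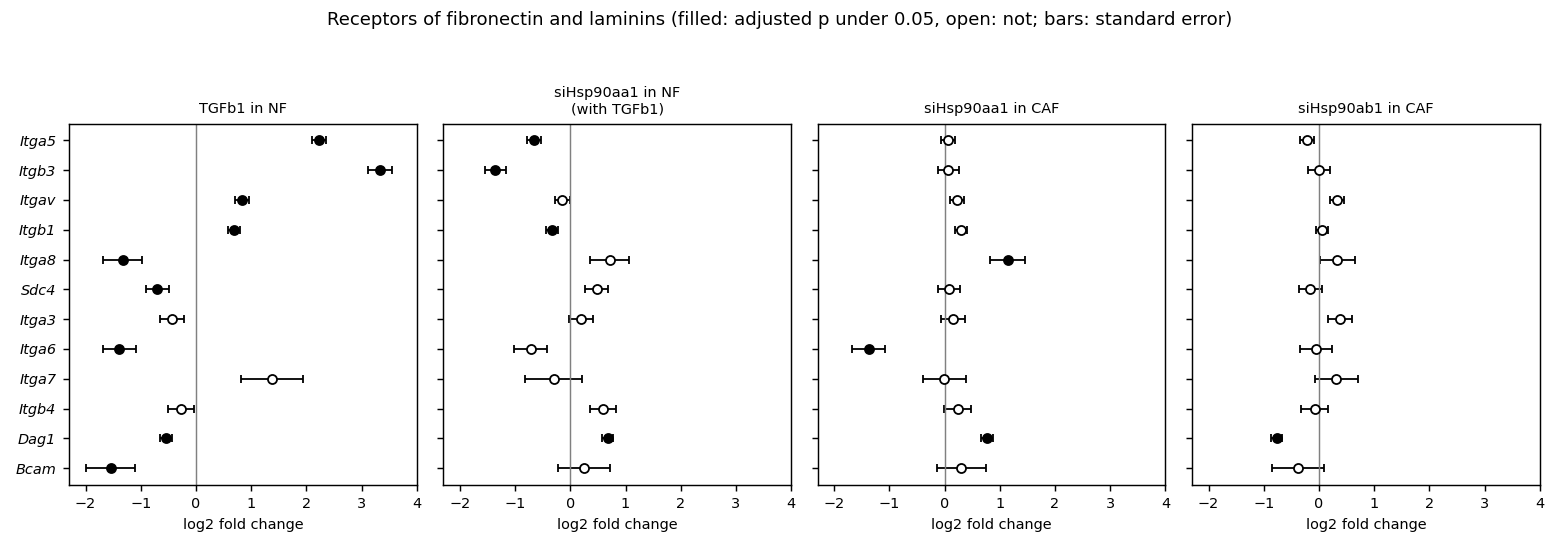
Log2 fold change with its standard error (x axis) of 12 of the 13 receptor genes for fibronectin and laminins in 4 comparisons, with filled points for an adjusted p under 0.05; Itga4, which is near 0 in NF, is not drawn. Itga5 and Itgb3 lie at 2.23 and 3.33 with TGFβ1 and at -0.66 and -1.36 with siHsp90aa1 in NF, and Dag1 lies right of 0 with siHsp90aa1 and left of 0 with siHsp90ab1.

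Over the 21 libraries, on log2 CPM, Lama5 and Hspg2 followed each other most closely (Pearson r = 0.954), then Lamb2 and Hspg2 (0.95) and Lama5 and Lamb2 (0.92). These values describe libraries that fall into 7 groups. After the group means were removed, r was 0.822 for Lama5 with Hspg2, 0.201 for Lamb2 with Hspg2 and 0.158 for Lama5 with Lamb2. Lama4 and Lamb1 were the pair with the lowest r, -0.461. Of the other genes tested, those with the most similar pattern were Pcdh9 for Lama5 (0.987), Rhoj for Lamb2 (0.992), Cmpk1 for Lamc1 (0.943) and Trak2 for Lamb1 (0.925). They were Cxcl12 for Lama4 (0.842), 1700025G04Rik for Nid1 (0.962), Cst3 for Nid2 (0.975) and Ttc28 for Hspg2 (0.987).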

How the data were processed

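RNA-seq libraries of cultured fibroblasts were read from a gene table, with 3 libraries in each of 7 groups and 35087180 to 70421576 counts per library. The deposited values were Salmon estimated counts and TPM made by the authors. STAR, Salmon and GRCm38 are named in the submitters' processing notes, and tool versions and the strand setting are not stated in any source used. Estimated counts (10.9% not whole) were rounded, by at most 0.5. Genes were kept by filterByExpr by group (minimum count 10, minimum total 15). All 21 libraries were fitted in edgeR 4.0.16 (R 4.3.3) with TMM scaling and 1 coefficient per group, by the quasi-likelihood test, with Benjamini-Hochberg adjustment over 15230 genes and a threshold of 0.05. Standard errors are the log2 fold change divided by the square root of F. CPM (counts scaled to the TMM-corrected library total) were computed, TPM served to compare levels between genes and were not tested, and correlations were taken on log2 CPM (prior count 2). Gene coordinates came from GENCODE vM21, matched for 10 of 10 genes.

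The alternatives were DESeq2 1.42.0, its size factors within the edgeR fit, no filter, only the compared groups, each library left out, and the replicate number as a block. The labels tie the replicate number to a batch, so the numbers pair libraries. The main fit held no term for this pairing. Over 9138 genes the deviations of same-numbered libraries from their group means correlated with a mean r of 0.351, over 0.1 in 56 of 63 pairs. For libraries of other numbers the mean r was -0.169, over 0.1 in 15 of 126 pairs. Deviations within a group offset each other, so these means are not independent. In data simulated for these comparisons the fit recovered 56% to 70% of 2-fold changes, over 14874 to 14893 genes. Of 1.5-fold changes it recovered 34% to 49%. Each simulated comparison changed 200 genes and held no replicate effect. Its recovery may not hold where many more genes changed. The 10 genes are named in every comparison, with at most the 4 genes of smallest p per list and the gene with the most alike pattern (for Fn1 not reported here). The genes and lists were chosen with earlier results of these data known.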

Additional observations from a re-analysis of the deposited data

Results flagged for a closer look

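For 3 genes the effect of siHsp90aa1 differed between CAF and NF by a test of the difference itself, an interaction term in edgeR with Benjamini-Hochberg adjustment. The CAF effect minus the NF effect was 0.66 for Fn1 (adjusted p = 0.0248), 1.17 for Lama5 (adjusted p = 0.0326) and -1.40 for Nid1 (adjusted p = 0.000888) on the log2 scale. Of all genes tested, 5.46% passed the same test. The calls for Fn1 and Lama5 were lost without any 1 of 7 and of 8 of the 12 libraries, and the call for Nid1 was kept without any 1 of them. With only the compared groups in the fit, the calls for Fn1 and Lama5 were also lost and that for Nid1 was kept. The NF libraries had TGFβ1 and the CAF libraries vehicle, so the line and TGFβ1 cannot be told apart.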

How the results depend on the processing

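Of 57 called results for these genes, 38 stayed called under all alternatives, and of 60 uncalled results, 51 stayed uncalled. Of 168 called results for the genes of the other lists, 127 stayed called. With the replicate block, 5 genes passed with TGFβ1 and 1 with siHsp90ab1 in NF, as Lama4 and Lamb1 were called. The count over all genes with TGFβ1 under the block is not given here. Over all genes the block gave 902 calls with siHsp90ab1 in NF, 360 in CAF, 1871 for the siHsp90aa1 difference between lines and 3 for the siHsp90ab1 difference. Beyond these, the block called Lama4 with siHsp90aa1 in NF and Lamb1 in CAF against NF with TGFβ1. DESeq2 gave 709, 322, 1341 and 18, and called 2 of these genes with siHsp90ab1 in CAF. With only the compared groups, siHsp90ab1 in CAF gave 5 calls, 0 of them among these genes, and the siHsp90aa1 difference 1 among these genes. The cause was not tested.

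Leaving out 1 library gave 157 to 329 calls over all genes with siHsp90ab1 in NF and 44 to 102 in CAF, 2460 to 4426 with siHsp90aa1 in CAF, and 2478 to 4285 between the knockdowns in CAF. It gave 453 to 951 for the siHsp90aa1 difference, with 1 to 3 among these genes, and 0 to 2 for the siHsp90ab1 difference. Between the knockdowns in NF it gave 4 to 6 of these genes, against 8 in the main fit. Over all genes that comparison gave 3841 to 4700 calls, against 5201 in the main fit.

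The direction turned in 45 values over 20 results, 0 of them called. Without the filter, Nid1 and Hspg2 with siHsp90ab1 in CAF were at -0.0225 and -0.0156, and Lama4 in CAF against NF with TGFβ1 at 0.0034. With the block Nid1 was at -0.0048 and Lama4 at 0.0283 there. Without 1 library, the TGFβ1 effect spanned -0.36 to 0.059 for Lama5 and -0.041 to 0.14 for Lamc1. That of siHsp90ab1 in NF spanned -0.37 to 0.22 for Lama4 and -0.18 to 0.075 for Nid1. In CAF it spanned -0.038 to 0.082 for Fn1, -0.093 to 0.063 for Nid1, -0.19 to 0.046 for Nid2 and -0.071 to 0.064 for Hspg2. Between the knockdowns it was -0.10 to 0.17 for Lama5 in NF and -0.21 to 0.13 for Lamb1 in CAF. The siHsp90aa1 difference was -0.11 to 0.02 for Hspg2, and the siHsp90ab1 difference -0.13 to 0.47 for Lama4, -0.36 to 0.015 for Lamb1, -0.19 to 0.004 for Lamb2 and -0.077 to 0.18 for Nid1. CAF against NF with TGFβ1 was -0.24 to 0.25 for Lama4. Against NF with vehicle, siHsp90aa1 with TGFβ1 was -0.28 to 0.23 for Lama4 and -0.048 to 0.26 for Lama5, and siHsp90ab1 with TGFβ1 -0.11 to 0.23 for Lama5 and -0.0054 to 0.17 for Hspg2.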
